A study of Mus musculus with 9 samples.

Results

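The RNAs described here are the distinct read sequences that small RNA sequencing of mouse serum annotated as piRNA. They were taken as every entry of the per-library lists of other small RNAs whose class was piRNA alone. This gave 26513 of 74900 entries over 9 libraries, between 1082 and 5841 per library. An entry holds a count and a sequence number but no name, no bases and no position, so neither the sequences nor their loci can be shown. The number is a rank by abundance among all distinct sequences that the library held. In every library no number was repeated and no count was higher at a later number. An entry of one library therefore cannot be identified with an entry of another, and the sum of 26513 counts a sequence once for each library that holds it.

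Serum came from healthy 129/SVj mice of both sexes, 2 to 9 months of age, and the labels name 3 serum pools (A, B and C). RNA from every pool was split into 3 fractions, which were left undepleted (control), depleted of abundant 5′ tRNA fragments by capture of biotinylated DNA probes on streptavidin beads (beads), or depleted with the same probes, RNase H and a DNase I digestion (RNase H). Each group thus has 3 libraries, 1 for each pool. The sample protocol describes 200 μl aliquots of a pool of 3 mice, so the spread between libraries may be technical only. Serum holds no cells, and the values do not tell how many cells of any kind released an RNA or how much each released. The fractions also differ in handling steps other than the probes (RNase H, DNase I, beads), and the parts of these steps cannot be told apart.

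piRNAs are small RNAs that guide Piwi proteins, a branch of the Argonaute family, to matching transcripts, and they are best known for silencing transposons in the germ line. In mice they are made in great variety from long single-stranded precursors in the testis, without the enzyme Dicer that cuts miRNAs from hairpins. They are somewhat longer than miRNAs and carry a methyl group on the last sugar. In the present libraries the name piRNA comes only from the position of a read in the genome. It says nothing of Piwi binding, of the methyl group or of the tissue of origin.

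The libraries held between 47252 and 4920457 counts in both lists together (miRNAs and other small RNAs), at most 160581 in the RNase H libraries and at least 2796718 in all others. For piRNA the depth was ordered differently, since the shallowest lists were those of the control libraries. In control libraries 3 piRNA counts made up 0.0570% to 0.0850% of all piRNA counts, against 0.00288% to 0.00895% in the RNase H libraries and 0.00662% to 0.00814% in the beads libraries. The rare end of the control lists is therefore the least well measured. Intervals and limits given here cover counting error only, because the reads come from PCR products without molecular identifiers.

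Depleted libraries held more piRNA-annotated reads than control libraries. The control libraries of pools A, B and C held 3528, 5262 and 4076 piRNA counts, a mean of 4289 ± 886.3 (SD, n = 3). The beads libraries held 41101, 36850 and 45331 counts (41094 ± 4240.5, SD, n = 3), and the RNase H libraries 104282, 33538 and 59370 counts (65730 ± 35798, SD, n = 3). Every depleted library lay above every control library, and the beads and RNase H libraries overlapped. The mean was 9.58 times that of control after beads and 15.3 times after RNase H (exact permutation p of 0.1 each, two-sided). Within a pool the ratio of RNase H to control was lowest in pool B (6.37) and highest in pool A (29.6). That of beads to control varied from 7.003 to 11.6. RNase H and beads libraries differed by 24636 counts on average (exact permutation p of 0.4), by 5360 without the RNase H library of pool A and by 40732 without that of pool B.

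**Figure D1:**
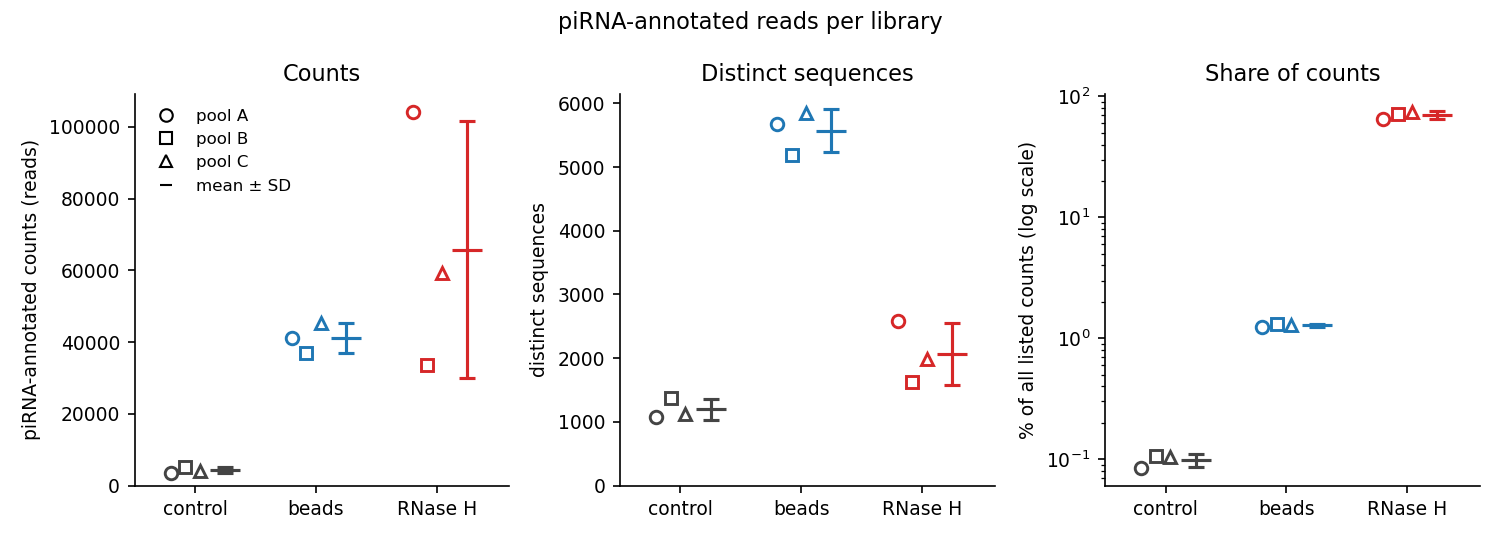
Counts (left), number of distinct sequences (middle) and share of all listed counts in percent on a log axis (right) of piRNA-annotated reads, by group. Open symbols are single libraries of pools A, B and C and bars are mean ± SD (n = 3). The RNase H library of pool A stands at 104282 counts, while the most distinct sequences, 5193 to 5841, are found in the beads libraries.

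Share and count did not give the same picture. In control libraries piRNA made up 0.0847%, 0.107% and 0.104% of all listed counts, in beads libraries 1.23%, 1.32% and 1.28%, and in RNase H libraries 64.9%, 71.0% and 74.9%. The Wilson 95% confidence interval was narrow in each library, for example 64.7% to 65.2% in the RNase H library of pool A and 0.0819% to 0.0875% in the control library of pool A. With tRNA, the class the probes were made for, left out of the total, the beads libraries held 2.08% ± 0.300 piRNA against 1.60% ± 0.0568 in control libraries (SD, n = 3). In both groups this total was almost all miRNA, so the share mainly sets piRNA against miRNA. With RNase H this share was 93.7% ± 2.13 (SD, n = 3). These shares are of listed reads, and reads that appear in neither list are not in the total. By the study's own counts, a far smaller part of the total reads mapped after RNase H than in the other groups. The RNase H shares thus refer to a much smaller part of the reads sequenced.

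The piRNA counts were also set against rRNA and against miRNA, although the study's own search found a few miRNAs fully complementary to the probes. By RT-qPCR the study also measured less miR-16 after both protocols, with the larger loss after RNase H. The miRNA counts are therefore not a fixed reference. By sequencing, the study found that miRNA levels after beads correlated highly with control, miRNAs complementary to the probes included. For RNase H this correlation was weaker. Such a correlation concerns the proportions among miRNAs and not their total. For every 100 counts of rRNA there were 124.5, 197.2 and 236.4 piRNA counts in control pools A, B and C, 289.5, 335.1 and 298.0 in beads libraries, and 2760.2, 3111 and 3893 in RNase H libraries. The groups did not overlap (exact permutation p of 0.1 in every pair of groups), with mean ratios to control of 1.65 for beads and 17.5 for RNase H. The rise after beads depended on the reference class. Control pools A, B and C held 349, 562 and 388 snRNA counts and beads libraries 4272, 4262 and 4768. Against snRNA, piRNA was thus lower after beads than in control in every pool. Against snoRNA (593, 912 and 728 in control, 6051, 5952 and 6202 in beads) it was higher in every pool. Per 100 miRNA counts the control libraries held 1.72, 1.59 and 1.64 piRNA counts and the beads libraries 2.13, 1.85 and 2.49, a mean ratio of 1.31 (exact permutation p of 0.1). In RNase H libraries there were 5112, 1696 and 4952 piRNA counts per 100 miRNA counts. These libraries held only 1199 to 2040 miRNA counts, against 205185 to 330676 in control and 1822088 to 1995956 in beads libraries. In RNase H libraries the most abundant piRNA sequence alone had 4.37 to 14.4 times as many counts as all miRNAs together.

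Distinct piRNA sequences were most numerous after beads. Control libraries of pools A, B and C listed 1082, 1383 and 1129 of them (1198 ± 161.9, SD, n = 3), beads libraries 5682, 5193 and 5841 (5572 ± 337.7, SD, n = 3), and RNase H libraries 2588, 1631 and 1984 (2068 ± 484.0, SD, n = 3). The groups did not overlap. The mean number was 4.65 times that of control after beads and 1.73 times after RNase H, and RNase H libraries had 0.371 times as many as beads libraries although their mean piRNA count was higher (exact permutation p of 0.1 each). Among the distinct sequences in the list of other small RNAs, miRNAs not included, 18.0% ± 1.06 were piRNA in control, 37.4% ± 0.192 in beads and 60.9% ± 2.85 in RNase H libraries (SD, n = 3).

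A distinct sequence had 3.56 ± 0.276 counts on average in control, 7.36 ± 0.351 in beads and 30.3 ± 9.87 in RNase H libraries (SD, n = 3). Sequences seen once made up 67.7% ± 2.18, 47.2% ± 0.509 and 51.5% ± 3.51 of the list in these groups (SD, n = 3). Of the counts they held 19.1% ± 2.08 in control libraries but only 6.42% ± 0.232 in beads and 1.86% ± 0.751 in RNase H libraries (SD, n = 3). By the Good-Turing estimate, in which the share of counts not seen once is the part of the class already sampled, coverage was 78.7% to 82.8% in control, 93.4% to 93.8% in beads and 97.3% to 98.8% in RNase H libraries. At the other end, no control library had a piRNA sequence with 1000 or more counts. Each beads library had 3, which held 16.6% to 25.0% of its piRNA counts. RNase H libraries had between 4 and 14 such sequences, which held 57.5% to 68.7%.

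In control libraries a single sequence stood far above the others. The first sequence of pools A, B and C had 637, 740 and 582 counts, which is 18.1% (Wilson 95% confidence interval 16.8% to 19.4%), 14.1% (13.2% to 15.0%) and 14.3% (13.2% to 15.4%) of the piRNA counts. The second had at most 206 counts, and the first exceeded it 6.31, 3.59 and 4.19 times. From there the counts declined slowly, since the third sequence had 80, 123 and 106 counts and the tenth 48, 83 and 62.

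The beads libraries of pools A and C had the same form and that of pool B did not. Their first sequence had 6655 (pool A), 3139 (pool B) and 9028 counts (pool C), or 16.2%, 8.52% and 19.9% of the piRNA counts. The second had 1262, 1654 and 1256 counts and the third 1211, 1322 and 1037. The first thus exceeded the second 5.27 and 7.19 times in pools A and C and only 1.90 times in pool B. In pool B the first sequence had fewer counts than in the other pools, and the sequences of orders 2 and 3 had more. The share of the first sequence did not differ beyond the spread between control (15.5% ± 2.25) and beads (14.9% ± 5.81, SD, n = 3, exact permutation p of 1). The difference of -0.59 percentage points became 2.59 without the beads library of pool B and 0.70 without the control library of pool A. With sequences of 1 count left out it was -3.29, a step that takes a larger part of the counts from control than from beads libraries.

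RNase H libraries were led by several sequences instead of 1. In pools A, B and C the first had 19679, 8638 and 17246 counts (18.9%, 25.8% and 29.0% of the piRNA counts) and the second 18756, 5641 and 10512 counts (18.0%, 16.8% and 17.7%). The third had 9804, 2922 and 4234 and the fourth 4163, 2082 and 4009 counts. The first exceeded the second only 1.05, 1.53 and 1.64 times. In pools B and C a step followed the fourth sequence, which had 2.64 and 3.29 times the counts of the fifth, against 1.38 times in pool A. Together the first 4 sequences held 50.3%, 57.5% and 60.6% of the piRNA counts in RNase H libraries. In control libraries the first 4 held 22.3% to 25.2%, and in beads libraries 19.1% to 26.7%. Whether the leading sequences are the same ones in the 3 pools, or in control libraries, cannot be read from these lists.

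The first 10 sequences held 34.2%, 33.0% and 33.6% of the piRNA counts in control pools A, B and C and 31.7%, 27.6% and 34.3% in beads libraries. In RNase H libraries they held 63.6%, 67.5% and 69.7%. RNase H libraries lay above all others (exact permutation p of 0.1 against each group), with a mean of 66.9% ± 3.10 against 33.6% ± 0.563 in control and 31.2% ± 3.35 in beads libraries (SD, n = 3). Beads and control libraries overlapped (exact permutation p of 0.4), and their difference of -2.38 percentage points was -0.60 without the beads library of pool B. With sequences of 1 count left out, the mean of the beads libraries was 33.3% against 41.6% in control libraries, and the libraries no longer overlapped (exact permutation p of 0.1). That step takes 17.2% to 21.3% of the counts from control libraries and 6.15% to 6.59% from beads libraries. By itself it thus raises the share of the first 10 more in control libraries, whose lists are shallower. As part of all listed counts of a library, the first 10 piRNA sequences amounted to 41.3% to 52.2% after RNase H, 0.364% to 0.439% after beads and 0.0289% to 0.0353% without depletion.

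The number of sequences that together hold 50% of the piRNA counts was 36, 37 and 31 in control pools A, B and C. It was 52, 66 and 43 in beads libraries and 4, 3 and 3 in RNase H libraries. No groups overlapped (exact permutation p of 0.1 in every pair). Without the most abundant sequence of each library the means were 64.3 in control, 103.7 in beads and 6.33 in RNase H libraries, in the same order. Outside the first 10 sequences, RNase H libraries still held 10911 to 37951 counts, beads libraries 26661 to 29784 and control libraries 2323 to 3524. These counts were spread over 1621 to 2578 sequences after RNase H and 5183 to 5831 after beads, which is a mean of 6.73 to 14.7 and 4.95 to 5.14 counts per sequence.

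**Figure D2:**
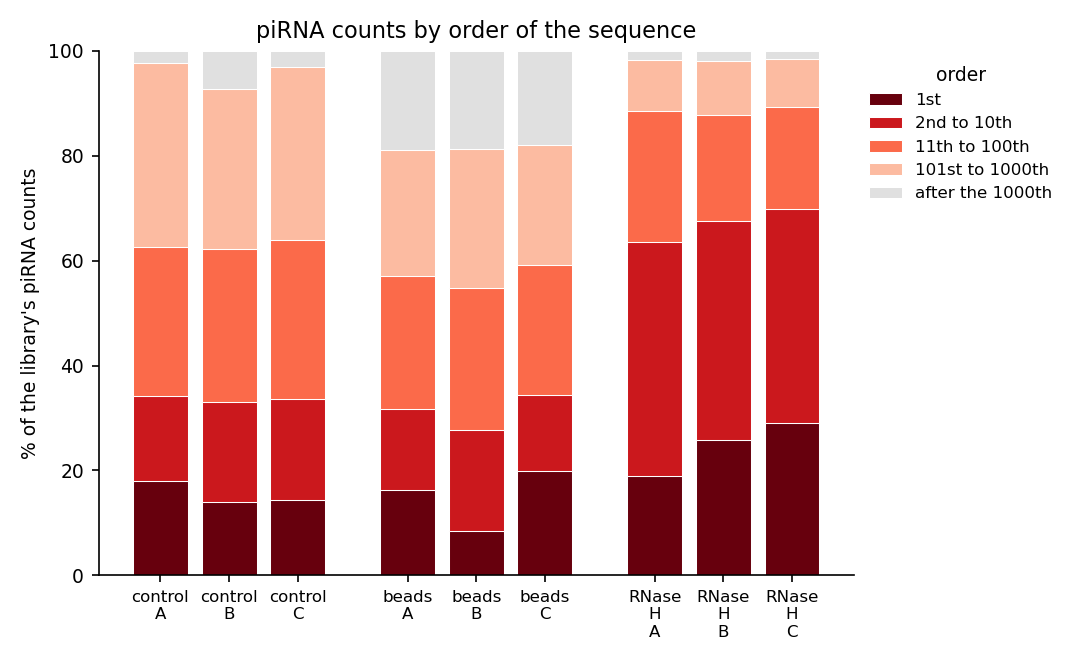
Share of the piRNA counts of each library, in percent, held by sequences of order 1, 2 to 10, 11 to 100, the next 900 and all later ones. The first 10 sequences take 63.6% to 69.7% in RNase H libraries, and sequences after the first 1000 take 17.9% to 19.0% in beads libraries.

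The middle and the end of the lists differed as well. Sequences of orders 11 to 100 held 29.3% ± 0.954 of the piRNA counts in control, 25.8% ± 1.16 in beads and 21.5% ± 2.88 in RNase H libraries (SD, n = 3). The next 900 sequences held 32.8% ± 2.29, 24.4% ± 1.82 and 9.71% ± 0.671. Later sequences held 4.26% ± 2.65 in control and 1.798% ± 0.123 in RNase H libraries, and 18.6% ± 0.563 in beads libraries. Because control libraries listed few sequences beyond the first 1000, their last share is limited by their depth. Their share of the next 900 depends on depth too, since 65.3% to 69.5% of the sequences of a control library had 1 count.

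On logarithmic axes, counts declined with order along a line that was steeper in RNase H libraries. The least-squares slope of log10 count on log10 order over the first 100 piRNA sequences was -0.96, -0.99 and -1.02 in control pools A, B and C, -0.98, -0.98 and -0.96 in beads libraries and -1.35, -1.30 and -1.30 in RNase H libraries. The mean slope of RNase H minus that of control libraries was -0.33 (exact permutation p of 0.1). Between beads and control the difference was 0.017 (exact permutation p of 0.4). It depended on the range of orders. Over orders 1 to 1000 the mean slopes were -0.86 in control and -1.005 in beads libraries, so that the sign of the difference was reversed. At order 1000 all control libraries are at 1 count and all beads libraries at 4. The tenth sequence had 11.9 to 12.4 times the counts of the hundredth in control libraries, 8.94 to 10.6 times in beads libraries and 17.6 to 22.1 times in RNase H libraries.

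**Figure D3:**
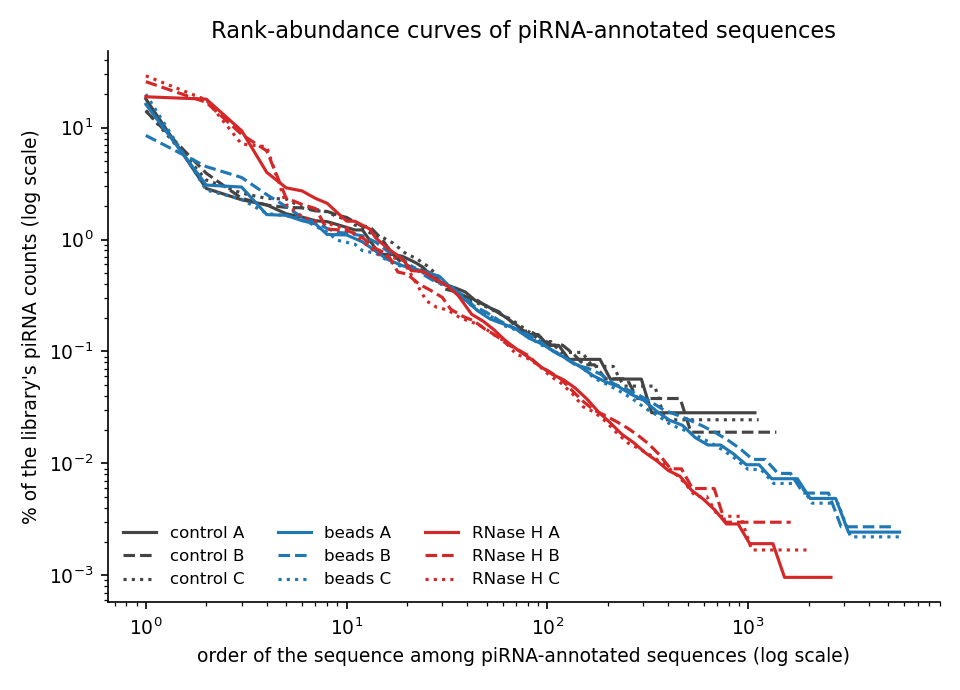
Share of the piRNA counts of a library (percent, log axis) held by each piRNA sequence, against its order by abundance (log axis), with 1 line per library. Beads and control lines run together over the first 100 orders with slopes of -1.02 to -0.96, except that the beads library of pool B starts lower, and RNase H lines lie above all others at orders 2 to 4 and decline with slopes of -1.35 to -1.30. The flat ends are sequences with 1 count.

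Since a deeper list holds more sequences, the libraries were also compared at an equal number of piRNA counts, 3528, the number in the shallowest library. Expected values were computed from the counts by formula, without drawing reads. At this depth control libraries of pools A, B and C had 1082, 1059 and 1022 distinct piRNA sequences, beads libraries 1233, 1265 and 1184, and RNase H libraries 404.6, 433.3 and 392.2. The means were 1054 ± 29.98, 1227 ± 40.8 and 410.0 ± 21.1 (SD, n = 3). The 4.65-fold excess of beads over control libraries at full depth was thus a 1.16-fold excess at equal depth. The 1.73-fold excess of RNase H over control became a ratio of 0.389. None of the groups overlapped (exact permutation p of 0.1 in every pair).

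The equal-depth difference between beads and control moved with the handling of rare sequences. It was 173.0 sequences with all of them, and 515.2 when sequences of 1 count were left out (891.8 ± 32.5 against 376.6 ± 61.9, SD, n = 3, at 2776 counts). For RNase H and control the same step left 304.9 ± 13.0 against 376.6 ± 61.9, still without overlap (exact permutation p of 0.1). Dropping sequences of 1 count removes 17.2% to 21.3% of the counts of a control library and at most 6.59% of those of a depleted library. Between RNase H and beads libraries, a deeper comparison was possible. At 33538 counts the expected numbers were 1519 ± 97.1 and 5046 ± 92.0 (SD, n = 3).

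Evenness was lower in RNase H libraries than in all others. It was taken as the Shannon entropy of the counts over its highest possible value for that number of sequences, and is 1 when every sequence is equally abundant. At 3528 counts it was 0.777, 0.790 and 0.785 in control pools A, B and C, 0.795, 0.828 and 0.774 in beads libraries and 0.620, 0.585 and 0.564 in RNase H libraries. The mean of RNase H minus that of control libraries was -0.194 (exact permutation p of 0.1). Beads libraries differed from control by 0.0148, less than the spread between beads libraries (exact permutation p of 0.5), and by 0.000542 without the beads library of pool B.

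The number of equally abundant sequences that would give the same entropy was 234.7 ± 9.72 in control, 298.5 ± 65.5 in beads and 35.1 ± 6.22 in RNase H libraries (SD, n = 3). Beads and control libraries overlapped in this measure (exact permutation p of 0.2), and beads was higher in each of the 3 pools, by 1.04 to 1.501 times. The mean difference of 63.8 was 28.5 without the beads library of pool B. It was 125.0 with sequences of 1 count left out, 103.4 without the first sequence and 138.0 without the first 10 (a setting chosen after the data had been seen), and in these settings the groups did not overlap (exact permutation p of 0.1 each). Leaving out sequences of 1 count removes a larger part of the counts of control than of beads libraries, so the 125.0 depends on depth. A measure that weights common sequences more, the inverse of the chance that a pair of piRNA reads has the same sequence, was 27.0, 38.8 and 37.7 in control pools A, B and C. It was 32.7, 72.0 and 23.1 in beads libraries and 12.1, 9.20 and 7.83 in RNase H libraries. The beads library of pool B was highest, and without it the difference of beads from control changed from 8.10 to -6.62. Without the first 10 sequences it was 105.0, and the groups did not overlap (exact permutation p of 0.1). RNase H libraries lay below all others (exact permutation p of 0.1 against each group).

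The lower evenness of RNase H libraries was smaller but present beyond their leading sequences. Without the 10 most abundant piRNA sequences of each library, evenness at 2323 counts was 0.847 ± 0.0108 in RNase H, 0.910 ± 0.00540 in control and 0.925 ± 0.000603 in beads libraries (SD, n = 3). The distinct sequences expected were then 614.7 ± 46.5, 1038 ± 32.7 and 1180 ± 9.04. The difference in evenness between RNase H and control was -0.0624 in place of -0.194, and the groups did not overlap (exact permutation p of 0.1). Beads and control libraries, which overlapped in evenness with all sequences, did not overlap here (difference 0.0151, exact permutation p of 0.1). This setting was chosen after the data had been seen.

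**Figure D4:**
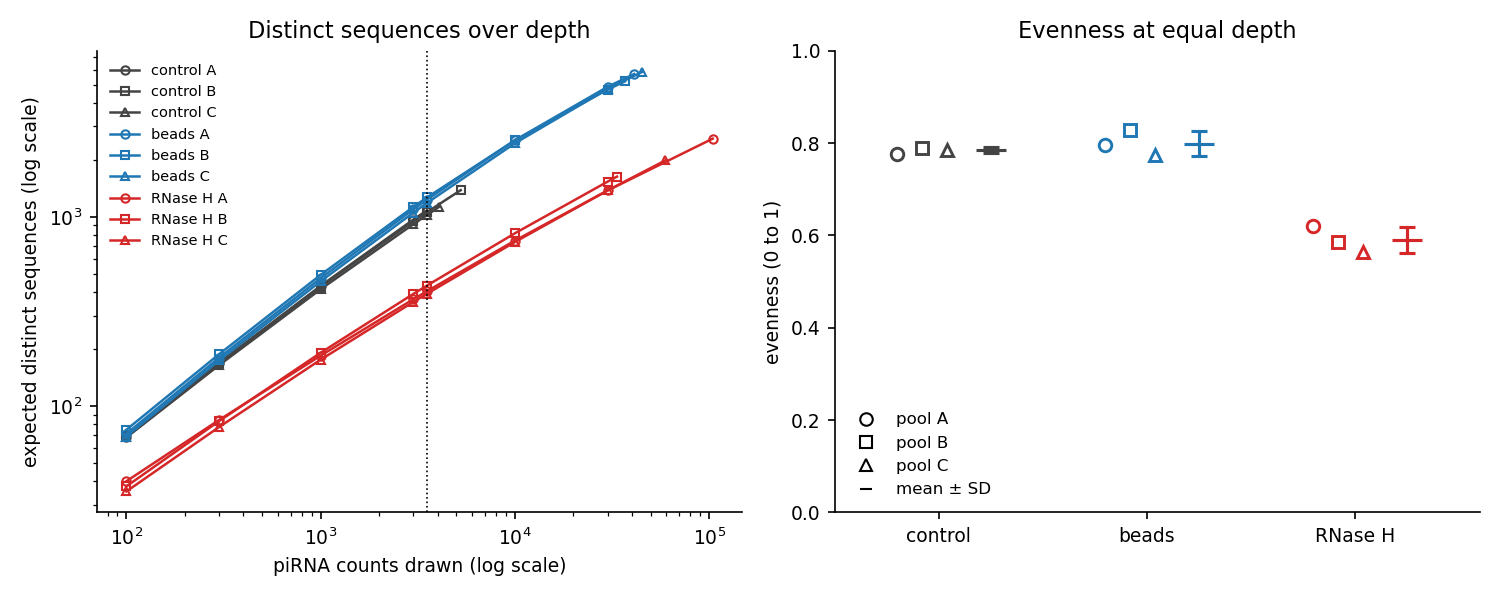
Left, expected number of distinct piRNA sequences (log axis) against the number of piRNA counts drawn (log axis), 1 line per library; the dotted line marks 3528 counts, where RNase H libraries reach 392.2 to 433.3 and the others 1022 to 1265. Right, evenness at 3528 counts for single libraries of pools A, B and C (open symbols) with mean ± SD (n = 3).

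In the ranking of all distinct sequences of a library, which includes reads that appear in neither list, the first piRNA sequence had a lower rank number in depleted than in control libraries. The most abundant piRNA sequence was at rank 306, 336 and 330 in control pools A, B and C, at rank 93, 161 and 80 in beads libraries and at rank 53, 63 and 35 in RNase H libraries. The groups did not overlap (exact permutation p of 0.1 in every pair). The difference of -61.0 ranks between RNase H and beads libraries was -36.2 without the beads library of pool B. A rank depends on all other sequences of its library. Of the first 100 ranks of control libraries 43 to 46 were tRNA sequences, against 18 to 23 in beads and 0 to 1 in RNase H libraries, and taking out a tRNA sequence by itself lowers the rank number of the sequences after it. The lists also differed in length, with the last listed rank at 58583 to 73218 in control, 192291 to 197581 in beads and 234462 to 362898 in RNase H libraries. These ranks are therefore no measure of piRNA amount. Among the first 1000 ranks there were 1, 2 and 2 piRNA sequences in control, 13, 15 and 14 in beads and 20, 13 and 20 in RNase H libraries. Both depleted groups lay above control (exact permutation p of 0.1 each) and overlapped each other (exact permutation p of 0.4).

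The list of other small RNAs, which holds no miRNAs, opened with a piRNA in all RNase H libraries and with a tRNA in all others, at rank 1 in control and at ranks 4 to 7 in beads libraries. The first tRNA of the RNase H libraries was at ranks 79 to 300 and the first rRNA at ranks 1171 to 2795. Sequences of this list were few among the leading ranks after RNase H. Of the first 100 ranks, 96 to 98 belonged to sequences that are miRNAs or appear in neither list, against 76 to 82 in beads and 54 to 57 in control libraries. In RNase H libraries none of them can be a miRNA. All miRNAs together held 2040, 1977 and 1199 counts in pools A, B and C there. The piRNA sequences at ranks 171, 201 and 120 had 4163, 2082 and 4009 counts. The list of other small RNAs made up 1.17% to 1.21% of all ranks down to the last listed one in RNase H libraries and 9.86% to 10.8% in control libraries.

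Compared with tRNA and rRNA sequences of the same library, the piRNA list was the most varied without depletion and after beads. At 1078 counts of each class, the sum of the smallest of these lists, control libraries had 449.2 ± 9.87 distinct piRNA, 182.2 ± 17.6 rRNA and 83.2 ± 1.09 tRNA sequences (SD, n = 3). Beads libraries had 503.0 ± 19.5, 226.8 ± 4.22 and 195.8 ± 23.9. In both groups piRNA was higher in all 3 pools (exact sign-exchange permutation p of 0.25 each, the smallest that 3 libraries allow). In RNase H libraries the numbers were 193.1 ± 8.17, 211.6 ± 23.3 and 184.0 ± 25.8, with piRNA above rRNA in 1 pool and above tRNA in 2 (exact permutation p of 0.5 each).

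Evenness gave an opposite order in the depleted groups. At 1078 counts piRNA was more even than rRNA in beads libraries (0.844 ± 0.0272 against 0.704 ± 0.0520) and less even than rRNA in RNase H libraries (0.646 ± 0.0311 against 0.793 ± 0.0454, SD, n = 3), in all 3 pools each. The first sequence held 15.5% ± 2.25 of the piRNA counts and 27.7% ± 3.01 of the rRNA counts in control libraries. In RNase H libraries it held 24.6% ± 5.19 and 9.40% ± 2.42 (SD, n = 3). After RNase H the differences from tRNA were smaller than those from rRNA. The first tRNA sequence held 19.9% ± 7.04 of the tRNA counts there. The share was higher for piRNA in 2 pools (exact sign-exchange permutation p of 0.5). Evenness of tRNA was 0.700 ± 0.0437 in RNase H libraries (SD, n = 3), above that of piRNA in all 3 pools. All of these within-library comparisons reached an exact permutation p of 0.25 at the lowest, and 0.3 after adjustment over the 18 made.

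**Figure D5:**
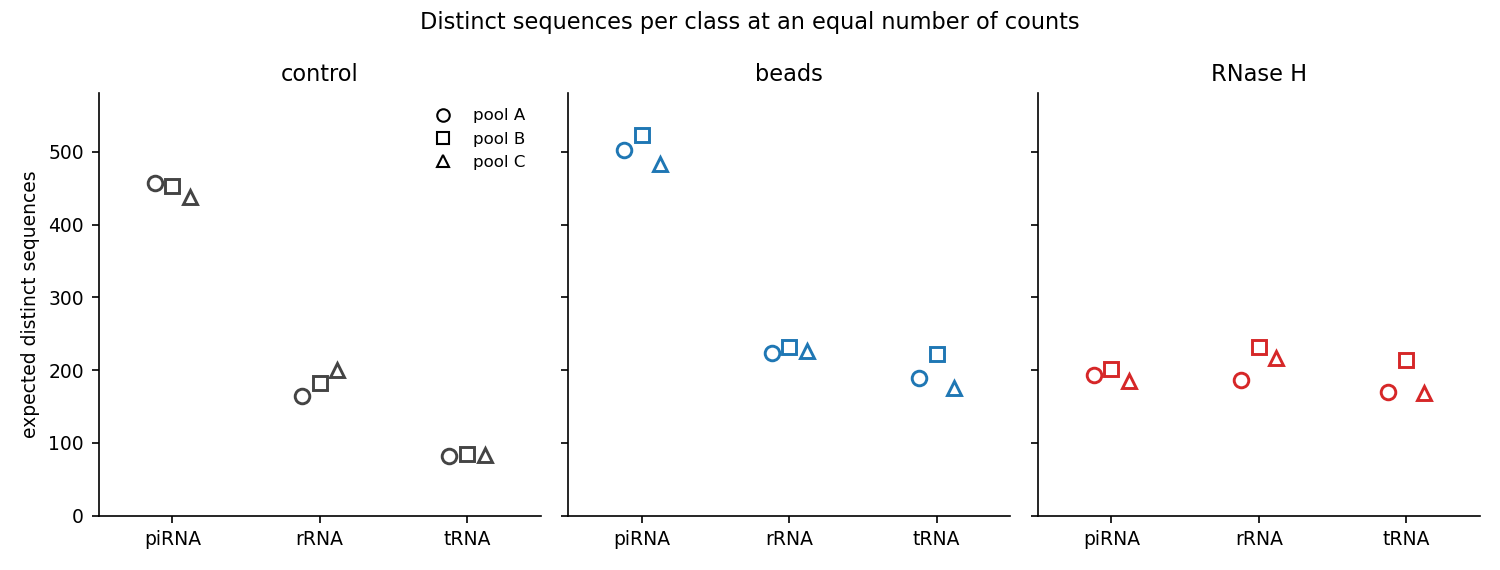
Expected number of distinct piRNA, rRNA and tRNA sequences at 1078 counts of each class, for single libraries of pools A, B and C in the control, beads and RNase H groups. piRNA lies at 438.0 to 522.8 in control and beads libraries, above both other classes, and at 184.7 to 201.0 in RNase H libraries, in the range of the others.

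In all, 60 comparisons between groups were made, 20 measures in 3 pairs of groups. In 50 of them the libraries of the groups did not overlap, which gave an exact permutation p of 0.1 and a Benjamini-Hochberg adjusted p of 0.12. Since 3 against 3 libraries cannot give a lower p, none could pass a threshold of 0.05. The direction was the same in all 3 pools in 52 of them. Each library enters more than 1 comparison, and the comparisons are not independent of each other.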

How the data were processed

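Small RNA libraries (TruSeq) of 9 serum RNA fractions, 3 for each group, were analysed. The deposited values are raw read counts, 2 lists per library (18 files), to which the authors applied no normalization. Per the submitters' processing notes, adapters were trimmed with Cutadapt (v1.8.1) and Bowtie (v1.1.2) was the aligner. The study's methods state mapping without mismatches to GRCm38 and annotation by genomic position; positions of small RNAs other than miRNAs came from UCSC and Ensembl, and which set in them holds the piRNAs is not given in the sources used here. Entries assigned to piRNA and a second class were left out.

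Group and pool were taken from the labels. Group means of 3 against 3 libraries were compared by exact permutation (two-sided, 20 assignments; SciPy 1.17.1, Python 3.11.15), with Benjamini-Hochberg adjustment over 60 comparisons. The same pool was split over the groups, so pools pair the libraries; entries cannot be matched between libraries, and the pairing was not checked on single sequences. The paired test exchanges signs within pools. Expected values at equal depth follow the hypergeometric distribution and were checked on simulated counts. Single sequences are described by their order (1 to 5, 10, 100 and 1000). Wilson 95% confidence intervals were used. Alternatives were at least 2 counts per sequence, other depths, denominators and ranges of orders, omission of leading sequences or of single libraries, log10 values and pools as blocks. Members, measures and settings were chosen with earlier results of these data known.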

Additional observations from a re-analysis of the deposited data

How the results depend on the processing

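The 60 differences between groups were recomputed in 600 alternative settings, of which 596 kept the direction and 4 did not, all 4 between beads and control. Many of these settings could not change the direction. In the 50 comparisons whose libraries did not overlap, neither log10 values nor the omission of 1 library can reverse it. Pools as blocks leave every mean difference as it is. The count of 596 therefore says little about how stable the differences are. The difference in the share of the first piRNA sequence (-0.59 percentage points) ranged from -3.11 to 2.59 when single libraries were left out. That in the inverse chance of drawing the same sequence (8.10) ranged from -6.62 to 17.9. The difference in slope (0.017) was -0.14 over orders 1 to 1000, where the control lists end in single counts. No difference of RNase H from control or from beads changed direction. When serum pools were fitted as a replicate block, the mean differences are the same by construction (36805 piRNA counts for beads minus control), the smallest possible exact sign-exchange permutation p is 0.25, and no call changed, because none can pass at this size. Log10 values could not be used in 6 comparisons, for slopes and for ranks with 0 sequences. Depth limits the control lists most, in which 3528 to 5262 piRNA counts leave rare sequences unseen.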

Other observations

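Beside the sequences of class piRNA, 26 entries were assigned to piRNA together with a second class (snoRNA in 17, snRNA in 6 and tRNA in 3 of them). They held between 1 and 10 counts in all in a library and were counted in neither class. Adding them left the direction of the differences in piRNA counts and in distinct sequences as it was.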
